A study of Homo sapiens with 2 samples.

Results

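The transcript content of whole cells was compared, gene by gene, with that of isolated nuclei from human brain organoids. The comparison held 29212 cells and 14228 nuclei, together 43440 of the 1500901 barcoded entries in the deposited tables. A cell was kept with more than 500 genes and more than 700 transcripts, and a nucleus with more than 500 genes and more than 1000 transcripts. Entries with more than 20% of their transcripts from the mitochondrial genome were left out, which removed 117 cells and 28 nuclei. Levels are normalised counts (CPM): a gene's transcripts, summed over all kept cells or nuclei, scaled to 1000000 transcripts of that library.

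All organoids were grown from H9, an established human embryonic stem cell line, so the data come from 1 genome. The library of cells pooled control organoids (CO) made with a commercial kit and sampled on days 45, 55 and 70, dissociated organoids (DISS) that were broken into single cells on day 45, left to reaggregate and sampled on days 48, 55 and 70, and constrained organoids (CONS) that were taken out of Matrigel on day 13, set in 3% agarose and sampled on day 55. The cells were released with the enzyme mix Accumax and fixed. The library of nuclei was labelled as a control experiment with the treatments Control, Dissociated and Embed; the study's methods describe CO of day 45, taken whole or as a cell suspension, from which nuclei were freed with detergent and sorted on a DNA stain. Both were barcoded by split pooling, in which fixed cells or nuclei collect their barcode over rounds of wells, with a smaller kit for the nuclei. Preparation, kit, sequencing depth, day and treatment all changed between the libraries, and their parts in any difference cannot be told apart. No label ties a barcode to a treatment or day, so days were not tested.

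There was 1 library of each kind, so no test and no p-value is given. The errors are standard deviations (SD) over the 8 sub-libraries of cells and the 2 of nuclei. Sub-libraries are portions of 1 pool and show technical spread only. The entries also split by the well of the first barcoding round, 48 for cells and 12 for nuclei, whose treatment and day are not known here; their lowest, median and highest values are given as a description. Intervals are 95% Poisson intervals and cover counting error only.

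A whole cell holds RNA of the nucleus, the cytoplasm and the mitochondria, whereas a nucleus isolated with detergent is stripped of most of the last 2 compartments. Newly made pre-mRNA with its introns, and certain long noncoding RNAs, stay in the nucleus, while spliced mRNA accumulates in the cytoplasm and mitochondrial transcripts are made and used inside mitochondria. In developing brain, neurons and their progenitors transcribe very long adhesion and synaptic genes, whose pre-mRNA takes long to complete.

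Some properties of the libraries bear on every value below. The kept cells held 164780142 transcripts at 8.94 mapped reads per transcript, and the kept nuclei 72162726 at 2.86. The median was 1494.5 transcripts per cell (quartiles 918 and 4447.5) and 3890 per nucleus (quartiles 2275 and 6191.25). The deepest 1% of cells (293) held 23.3% of the transcripts of cells, against 7.54% for the deepest 1% of nuclei (143). Of the kept cells, 10291 (35.2%) had the same combination of wells as an entry of another sub-library, against 1272 nuclei (8.94%). In cells, 131 combinations occurred in all 8 sub-libraries. There the deepest entry had a median of 144698 transcripts, and the shallowest held a median of 0.833% of the deepest. In nuclei, 636 combinations occurred in both sub-libraries, with medians of 5747 transcripts and 59.7%. Such entries may share a source or have met by chance, which was not tested, so the sub-libraries may hold parts of the same cells. Between the libraries, 133 kept barcodes were the same. The wells differed in size, from 58 to 4062 kept cells and from 567 to 2371 kept nuclei. In wells 11 and 12 of the nuclei, EGR1 and FOS stood far above the other 10 wells, so results that rest on them are also given without them.

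Genes per entry were compared after thinning, which matches transcripts per entry but not reads per transcript. When every cell and nucleus was thinned to 1000 transcripts, the median was 805 genes per cell (n = 20195; 9017 shallower cells left out) and 756 per nucleus (n = 14228). At 2000 transcripts the medians were 1431 and 1310 genes, with 17234 cells and 2852 nuclei left out. Without thinning, the order was the other way, with 1127 genes per cell and 2077.5 per nucleus. The share of mitochondrial transcripts per entry had a median of 2.50% in cells and 0.0863% in nuclei, and was 0 in 21 cells and 2734 nuclei.

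Genes with at least 10 CPM in the library where they were higher were compared, 11659 in all. Of these, 806 (6.91%) were 2-fold or more higher in cells and 65 (0.558%) were 2-fold or more higher in nuclei; for all 871 the sub-libraries of cells and nuclei did not overlap. At 4-fold the counts were 159 and 0. Without wells 11 and 12 of the nuclei, 1023 genes were called higher in cells and 96 in nuclei. Both counts also moved with the minimum level, and that for nuclei was larger under several other settings, as given below. The median log2 ratio of cells to nuclei over all compared genes was 0.13, with 7235 genes above 0, and list medians below are to be read against that shift. The share called higher in cells differed with the level: 13.0% of 2905 genes whose higher level was 10 to 20 CPM, and 2.43% of 2591 genes at 100 CPM or more, of which 1.27% were called higher in nuclei. Within 10 to 20 CPM a gene that is high in 1 library alone passes the minimum only through that library.

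**Figure D1:**
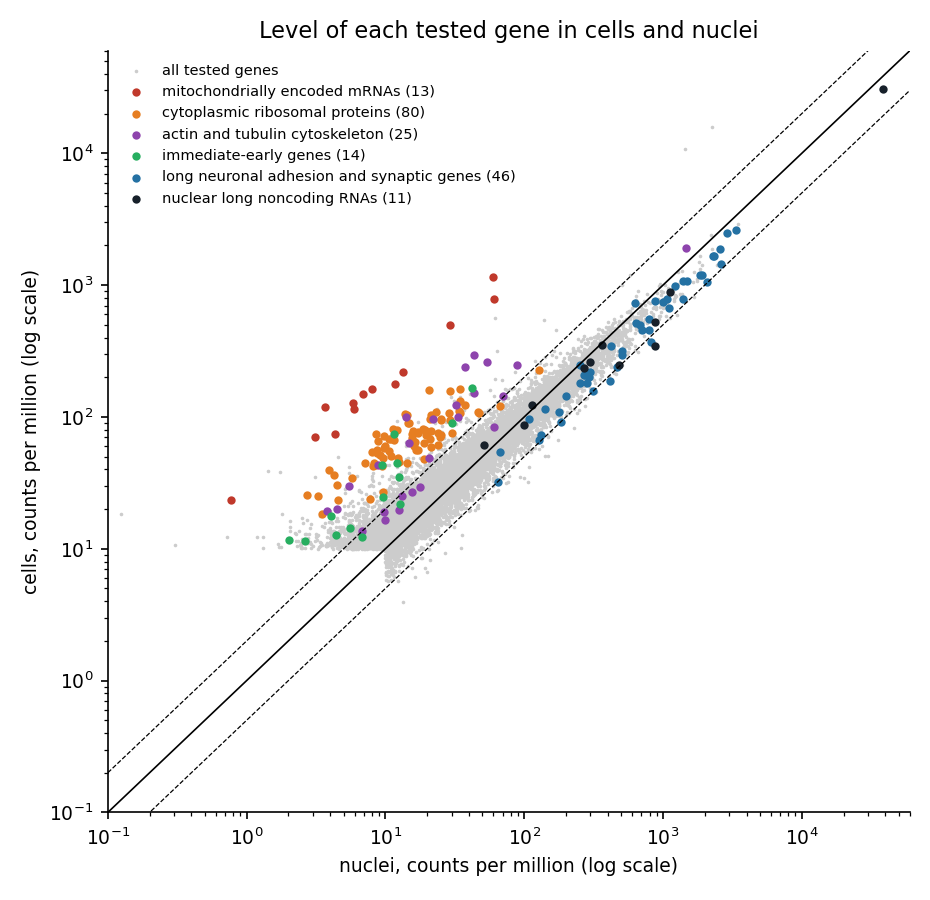
Level of each compared gene in nuclei (x axis) and cells (y axis), in CPM on log scales, with a solid line at equal levels and dashed lines at 2-fold; colours mark 6 gene lists. Mitochondrially encoded mRNAs and ribosomal protein genes lie above the upper dashed line with few exceptions, and long neuronal genes lie mostly below the solid line.

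The mitochondrial genome gave the largest ratios of any list. Mitochondrially encoded mRNAs, which code for 13 subunits of the respiratory chain and ATP synthase, made up 0.368% ± 0.0129 (SD, n = 8 sub-libraries) of the transcripts of cells and 0.0212% ± 0.00194 (n = 2) of those of nuclei, 17.3-fold higher in cells. By well, the share ran from 0.0487% through a median of 0.293% to 0.847% in cells and from 0.00890% through 0.0183% to 0.0480% in nuclei. All 48 wells of cells therefore lay above all 12 wells of nuclei, if only just at the nearest pair. Without wells 11 and 12 the share in nuclei was 0.0145%. All 13 mRNAs were 4-fold or more higher in cells, with log2 ratios from 3.71 to 5.03 and a median of 4.28.

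MT-ND4L, which encodes a small membrane subunit of complex I (chrM:10470-10766, GRCh38), had the largest ratio of the 13. It stood at 119 ± 9.91 CPM in cells and 3.64 ± 0.369 CPM in nuclei, a log2 ratio of 5.03. Its wells ran from 18.5 through 77.4 to 274 CPM in cells and from 2.02 through 2.82 to 7.93 CPM in nuclei, with no overlap. MT-ND5, another complex I subunit, measured 1154 ± 74.0 CPM against 59.2 ± 5.24 CPM, 19.5-fold. MT-CO1, the catalytic subunit of cytochrome c oxidase, had the smallest ratio, 789 ± 33.0 CPM against 60.5 ± 4.27 CPM or 13.0-fold. MT-ND3 was the lowest in nuclei, with 56 transcripts in all (0.776 CPM) against 23.4 CPM in cells, a log2 ratio of 4.91 (interval 4.53 to 5.32).

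The 2 mitochondrial ribosomal RNAs differed less than the mRNAs. Together they took 2.66% ± 0.0940 of transcripts in cells and 0.368% ± 0.0268 in nuclei, 7.22-fold, and 47 of 48 wells of cells lay above all wells of nuclei. MT-RNR2, the large ribosomal RNA, stood at 15799 CPM in cells and 2239 CPM in nuclei, and MT-RNR1, the small one, at 10762 and 1438 CPM. Mitochondrial genes have near-identical copies in the nuclear genome, with which they can share reads. Mitochondrial mRNAs were also present in entries of 10 to 100 transcripts, taken here as the background of free RNA, at 0.290% of transcripts in the library of cells and 0.0297% in that of nuclei.

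Cytoplasmic ribosomal protein genes, which encode the structural proteins of the ribosome and have short, abundant, stable mRNAs, were the largest list that was almost uniformly higher in cells. Of 80 compared, 78 were 2-fold or more higher, with a median log2 ratio of 2.20 and a range of 0.83 to 3.32. Their summed share was 0.591% ± 0.0251 in cells and 0.150% ± 0.00468 in nuclei, 3.94-fold. The wells ran from 0.161% through 0.375% to 1.07% in cells and from 0.0970% through 0.127% to 0.257% in nuclei. Here 40 of 48 wells of cells lay above all wells of nuclei, so the ranges overlapped, and the background held 0.455% and 0.152%. Without wells 11 and 12 the share in nuclei was 0.121%. Ribosomal protein genes have many processed copies in the genome, and reads split between copies make single values uncertain.

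RPS15, a protein of the small subunit, had the largest ratio in this list: 39.4 ± 3.42 CPM in cells and 3.95 ± 0.207 CPM in nuclei, a log2 ratio of 3.32. RPS28, also of the small subunit, stood at 25.7 and 2.74 CPM (log2 3.23), RPL13A of the large subunit at 157 ± 10.2 and 29.3 ± 2.75 CPM (2.42), and RPS6, the substrate of S6 kinase, at 163 ± 8.03 and 34.5 ± 1.14 CPM (2.24). The 2 members that did not reach 2-fold were RPL31, 122 ± 6.14 against 67.2 ± 0.473 CPM (0.86), and RPL37A, 227 ± 17.6 against 128 ± 0.758 CPM (0.83). RPL37A has the longest annotated span of the 80 genes, 80.4 kb, and RPL31 the ninth longest, 21.8 kb.

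Many ribosomal protein mRNAs begin with a terminal oligopyrimidine tract, a run of C and T at the very start that links their translation to mTOR signalling. The windows around the annotated start, 10 bases before and 20 after, are shown for the ribosomal protein genes named above that hold such a tract. TPT1, which also holds it, and a few genes high in cells that do not are added, so that the lists can be compared at sequence level. The cytoskeleton gene MAP1B, named below with the smallest log2 ratio of its list (0.40), is not shown. It holds a run of 11 pyrimidines, 7 of them inside its window. Sequences are from RefSeq on GRCh38.p14, 5′ to 3′ on the gene's strand, and capitals mark a run of at least 8 pyrimidines that reaches into the 5 bases on either side of the start.
RPL13A, chr19:49487598-49487627, plus strand: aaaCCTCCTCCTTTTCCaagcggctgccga
RPL31, chr2:101002279-101002308, plus strand: ccttcgcgCTCTTCCTTTCCaacttggacg
RPL37A, chr2:216498834-216498863, plus strand: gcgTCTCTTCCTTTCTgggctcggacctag
RPS6, chr9:19380217-19380246, minus strand: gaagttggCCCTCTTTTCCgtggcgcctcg
RPS28, chr19:8321486-8321515, plus strand: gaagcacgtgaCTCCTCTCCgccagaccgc
TPT1, chr13:45341164-45341193, minus strand: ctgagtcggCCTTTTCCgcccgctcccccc
RPS15, chr19:1438386-1438415, plus strand: aggcgcggaccaaagcgatctcttctgagg
ACTG1, chr17:81512780-81512809, minus strand: cgcggtcggtctcagtcgccgctgccagct
TMSB10, chr2:84905646-84905675, plus strand: ccgctcttttgtttcttgctgcagcaacgc
TMSB4X, chrX:12975100-12975129, plus strand: cccgcccgacaactcggtggtggccactgc

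The tract was found at 47 of 64 ribosomal protein genes with a promoter in the RefSeq table (73.4%), against 2990 of 27305 promoters in all (11%). It was not a general property of genes high in cells. Outside the ribosomal protein list, 46 of 503 genes called higher in cells held it (9.15%), and 4 of 37 called higher in nuclei (10.8%). Compared genes other than ribosomal proteins had a median log2 ratio of 0.13 with the tract (n = 1003) and 0.13 without it (n = 7853). Within the list the window of RPL37A, with the smallest ratio, holds the tract, while that of RPS15, with the largest, holds a run of pyrimidines only further downstream of the annotated start.

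**Figure D2:**
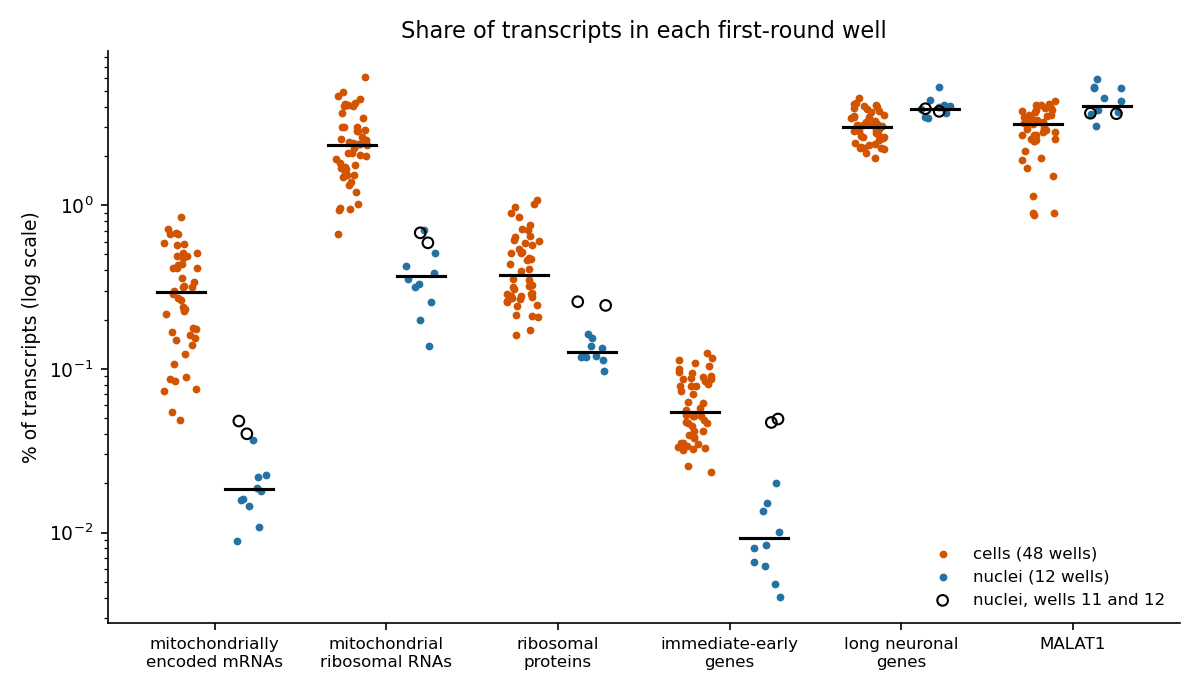
Share of transcripts (%, log scale) of 6 groups of genes in each first-round well, with 1 point per well for cells (48 wells) and nuclei (12 wells), a bar at the median, and open circles for wells 11 and 12 of the nuclei. The wells of cells and nuclei are apart only for mitochondrially encoded mRNAs, 0.0487% to 0.847% against 0.00890% to 0.0480%.

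Genes for translation factors were higher in cells less uniformly than those for ribosomal proteins. Of 35 compared, 12 were 2-fold or more higher in cells, beside 6.91% of all genes, and none in nuclei, with a median of 0.77 and all 35 above 0. EIF1, which guards start codon selection, stood at 91.6 ± 6.51 CPM in cells and 17.2 ± 0.859 CPM in nuclei (log2 2.41). TPT1, a growth-linked protein whose window with the tract is shown above, stood at 132 ± 7.91 and 31.3 ± 0.0750 CPM (2.08). PABPC1, the cytoplasmic poly(A)-binding protein, stood at 218 and 86.2 CPM (1.34), while EIF4G2, a scaffold of cap-independent initiation, at 258 and 131 CPM (0.98) fell just short of 2-fold. Factors with the tract (9) had a median of 0.77 and those without it (17) a median of 0.98.

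Actin and tubulin genes, with the small actin-binding thymosins, formed the next list. Of 25 compared, 16 were 2-fold or more higher in cells, beside 6.91% of all genes, with a median of 1.60 and a range of 0.40 to 2.84. TMSB4X, which sequesters actin monomers (chrX:12975110-12977227), stood at 297 ± 14.3 CPM in cells and 43.4 ± 5.13 CPM in nuclei (log2 2.77). Its wells ran from 95.1 through 220 to 603 CPM in cells and from 27.6 through 38.09 to 77.2 CPM in nuclei, without overlap. Its relative TMSB10 stood at 101 ± 3.76 and 14.02 ± 1.08 CPM (2.84), with wells from 14.3 to 191 and from 5.98 to 27.6 CPM, which do overlap. ACTG1, a cytoplasmic actin, stood at 263 and 53.7 CPM (2.29) and TUBA1A, the main α-tubulin of young neurons, at 250 and 88.8 CPM (1.49). MAP1B, a microtubule-associated protein with a gene of 102 kb, had the smallest ratio in the list, 1929 ± 45.9 against 1458 ± 7.54 CPM (0.40).

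Nuclear genes of the respiratory chain split widely. Of 70 compared, 33 were 2-fold or more higher in cells, beside 6.91% of all genes, and none in nuclei, with 66 above 0, a median of 0.92 and a range of −0.36 to 3.36. The short COX8A and UQCR10 below passed the minimum of 10 CPM only through their level in cells, and with a minimum of 50 CPM the list median was 0.11. Their summed share was 0.205% ± 0.00469 in cells and 0.135% ± 0.00183 in nuclei, 1.52-fold, beside 17.3-fold for the mRNAs of the same complexes encoded in the mitochondria. COX8A, a small subunit of cytochrome c oxidase with a gene of 1924 bases, stood at 12.2 ± 1.10 CPM in cells and 1.19 ± 0.344 CPM in nuclei (log2 3.36). UQCR10 of complex III stood at 10.3 and 1.72 CPM (2.59). At the other end were subunits of complex I with long genes: NDUFS4 stood at 65.7 ± 3.65 and 64.0 ± 1.14 CPM (0.04) and NDUFA10 at 111 ± 4.37 and 127 ± 4.76 CPM (−0.19). ATP5F1C, of the ATP synthase stalk, had the lowest ratio, 36.0 against 46.3 CPM (−0.36).

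Chaperones, glycolytic enzymes and the proteasome had lower medians, with more members called than the 6.91% of all genes. Among chaperones 9 of 29 were called higher in cells (median 0.76): HSP90AB1, the constitutive cytosolic HSP90, stood at 191 and 69.5 CPM (log2 1.46), its inducible relative HSP90AA1 at 389 and 264 CPM (0.56), and HSPH1, an HSP70 exchange factor, at 72.5 and 103 CPM (−0.51). Over wells HSP90AA1 ranged from 107.6 through a median of 293 to 1524 CPM in cells and from 65.7 through 119 to 665 CPM in nuclei, so its medians stood further apart than its sums. Among glycolytic enzymes 3 of 16 were called (median 0.36): GAPDH stood at 73.8 ± 4.10 and 15.5 ± 0.528 CPM (2.25) and ALDOA at 38.5 and 12.9 CPM (1.58), but PKM, the pyruvate kinase of this tissue, at 112 and 98.7 CPM (0.18). Of 31 proteasome genes 5 were called (median 0.59), with PSMB6 of the catalytic ring at 10.6 and 2.41 CPM (2.14) and PSMA1 of the outer ring at 62.7 and 70.8 CPM (−0.18). PSMB6 passed the minimum of 10 CPM only through its level in cells, and with a minimum of 50 CPM the median of the proteasome was 0.22.

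Secreted and matrix proteins, whose mRNAs are translated at the endoplasmic reticulum, were split: 8 of 22 were called higher in cells, beside 6.91% of all genes, while the median was 0.19 and 10 were below 0. The median turned to −0.26 with a minimum of 50 CPM and to −0.10 with each gene at its median over wells. TTR, the thyroid hormone carrier secreted by choroid plexus, stood at 566 ± 95.03 CPM in cells and 61.4 ± 6.29 CPM in nuclei (log2 3.20). It also varied widely between wells, from 35.6 through 205 to 2087 CPM in cells and from 32.7 through 65.4 to 91.6 CPM in nuclei, and its level in the background was 536 and 62.5 CPM, close to that of kept entries. APOE, a lipid carrier of glia, stood at 10.4 and 2.47 CPM (2.08) and passed the minimum of 10 CPM only through its level in cells. Among the members below 0 were VCAN, a matrix proteoglycan, at 504 and 635 CPM (−0.33), COL4A5, a basement membrane collagen, at 537 and 848 CPM (−0.66), and RELN, the extracellular guide of neuronal migration, at 54.3 ± 22.2 and 92.9 ± 16.7 CPM (−0.77).

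Long noncoding RNAs known to stay in the nucleus were the mirror of these lists only in part. Of 11 compared, 1 was 2-fold or more higher in nuclei and none in cells, beside 0.558% and 6.91% of all genes, with a median of −0.20 and 9 below 0. MALAT1, a nuclear speckle RNA, took 3.06% ± 0.0668 of the transcripts of cells and 3.82% ± 0.0733 of those of nuclei. Its wells ran from 0.871% through 3.12% to 4.36% in cells and from 3.06% through 4.06% to 5.91% in nuclei, and 23 of 48 wells of cells lay below all wells of nuclei. NEAT1, the scaffold of paraspeckles (chr11:65422774-65445540), was the 1 called: 344 ± 56.8 CPM in cells and 870 ± 62.1 CPM in nuclei, 2.53-fold higher in nuclei. Its wells overlapped, from 33.9 through 237 to 2169 CPM and from 411 through 1248 to 2089 CPM, and without wells 11 and 12 its level in nuclei was 999 CPM.

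KCNQ1OT1, an imprinted antisense RNA, stood at 249 and 485 CPM (log2 −0.96), SOX2-OT, which spans the SOX2 locus, at 525 and 877 CPM (−0.74), and SNHG14, of the Prader-Willi region, at 885 and 1130 CPM (−0.35). TUG1 went the other way, at 61.3 and 51.4 CPM (0.25). Reads of antisense or overlapping genes may be shared with their partners, since strand use in the counting is not given in the sources used here. Long noncoding RNAs as a whole made up 9.61% ± 0.0888 of transcripts in cells and 10.6% ± 0.0362 in nuclei, and nuclear protein-coding genes 86.6% and 88.4%. Hosts of small nucleolar RNAs, whose spliced exons are exported and decay while the introns feed the nucleolus, had a median of 0.77: 3 of 10 were called higher in cells, beside 6.91% of all genes, SNHG6 at 33.7 and 10.7 CPM (1.66) and GAS5 at 62.1 and 39.3 CPM (0.66).

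Splicing regulators known for transcripts with retained introns showed no member past 2-fold in either direction, of 40 compared, with a median of 0.19 and a range of −0.29 to 0.76. Their summed share was 0.934% ± 0.00685 in cells and 0.888% ± 0.00235 in nuclei. DDX5, an RNA helicase, stood at 305 and 180 CPM (log2 0.76), SRRM2, a speckle scaffold, at 532 and 511 CPM (0.06), and LUC7L3, a U1-associated factor, at 730 and 877 CPM (−0.26). Among histone genes, 6 of 62 replication-dependent genes passed the minimum (1 called higher in cells, median 0.77) and 9 of 10 polyadenylated variants (5 called, median 1.39), beside 6.91% of all genes called. With a minimum of 50 CPM the median of the polyadenylated variants was 0.45. H3-3B, a replacement histone H3, stood at 142 ± 7.52 and 29.9 ± 2.53 CPM (2.25) and the linker histone H1-4 at 40.0 and 22.4 CPM (0.84). Only 3 of 14 small nuclear RNAs and RNA enzymes and none of 3 signal recognition particle RNAs reached the minimum. Of these 3, 2 were called higher in cells, beside 6.91% of all genes, and none in nuclei, with a median of 1.00. RNU4-2, the U4 spliceosomal RNA, stood at 1000.1 ± 272 and 507 ± 95.2 CPM (0.98), with wells from 35.2 to 6618 and from 54.1 to 2012 CPM.

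**Figure D3:**
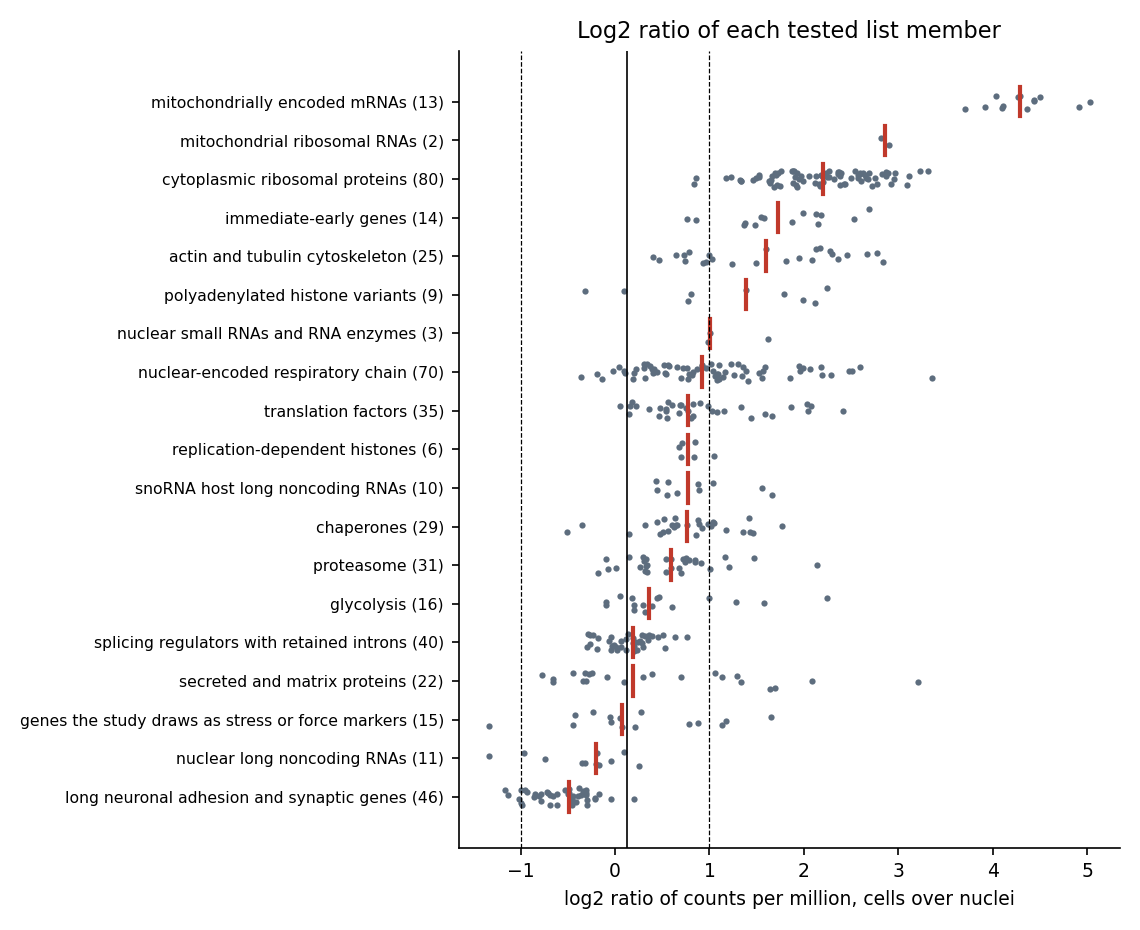
Log2 ratio of CPM, cells over nuclei, for each compared member of 19 gene lists (points), with the number compared in brackets, a red bar at the list's median, a solid line at the median of all compared genes (0.13) and dashed lines at 2-fold. Medians run from 4.28 for mitochondrially encoded mRNAs to −0.49 for long neuronal adhesion and synaptic genes, and 16 of 19 lie above the line of all genes.

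Long neuronal adhesion and synaptic genes leaned to nuclei as a list. Of 46 compared, 3 were 2-fold or more higher in nuclei, beside 0.558% of all genes, none in cells, and 45 had ratios below 0, with a median of −0.49. The 318 protein-coding genes of 500 kb or more had a median of −0.43, with 5.35% called higher in nuclei. The summed share of the 46 genes was 2.94% ± 0.0490 in cells and 4.22% ± 0.0447 in nuclei. Wells ran from 1.94% through 3.02% to 4.52% in cells and from 3.39% through 3.88% to 5.30% in nuclei, and 33 of 48 wells of cells lay below all wells of nuclei. ERBB4, the neuregulin receptor (chr2:211375717-212538841), stood at 187 ± 26.7 and 419 ± 22.3 CPM (log2 −1.16), and LRP1B, a giant endocytic receptor, at 371 ± 35.9 and 816 ± 31.2 CPM (−1.14). IL1RAPL1, a synaptic adhesion protein, stood at 1435 ± 91.4 and 2606 ± 50.4 CPM (−0.86) and AUTS2, a neurodevelopmental regulator, at 2629 ± 45.1 and 3337 ± 22.4 CPM (−0.34). NRG1, a ligand of ERBB4, was the 1 member above 0, at 729 ± 88.2 and 632 ± 32.0 CPM (0.20).

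Beyond the lists, genes of 50 CPM or more that passed 2-fold in the same direction in all kept entries and in both cell classes below, with no overlap of sub-libraries, numbered 143 for cells and 4 for nuclei. The 10 with the largest ratios for cells were all mitochondrial mRNAs. Outside the mitochondrial genome and ribosomal proteins 71 qualified, of which the leading ones are named here after their values were seen. FTH1, the iron store ferritin heavy chain, stood at 92.6 ± 8.81 CPM in cells and 12.2 ± 0.508 CPM in nuclei (log2 2.92). ACTB stood at 240 ± 8.96 and 37.7 ± 0.643 CPM (2.67) and PTMA, a chromatin-linked prothymosin, at 317 ± 12.8 and 63.9 ± 4.73 CPM (2.31). The small nuclear RNA 7SK, which holds P-TEFb inactive, was also higher in cells, at 116 and 23.5 CPM (2.30), but its SD over sub-libraries of cells was 83.7 CPM.

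The 4 genes for nuclei were ZNF385D, MYRIP and the noncoding LINC00342 and ENSG00000291283. ZNF385D, a zinc finger gene of 961 kb (chr3:21412218-22373321), stood at 50.4 ± 3.95 CPM in cells and 141 ± 5.13 CPM in nuclei (log2 −1.49). MYRIP, which links melanosome and secretory granule transport to actin, stood at 34.9 ± 2.83 and 93.8 ± 0.995 CPM (−1.42). Their wells overlapped: ZNF385D ran from 13.1 to 165 CPM in cells and from 57.9 to 289 CPM in nuclei. At 50 CPM or more, 43 genes were called higher in nuclei without the demand on classes, led by MGAT4C, a glycosyltransferase gene of 883 kb, at 32.2 ± 7.03 and 107 ± 3.57 CPM (−1.73).

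At the other extreme, the largest ratio of all belonged to IL22RA2, a soluble receptor for interleukin 22, with 3009 transcripts in cells and 9 in nuclei, 18.3 and 0.125 CPM, a log2 ratio of 7.19. Of its transcripts in cells 97.9% came from 3 of 48 wells, and the median well held 0.239 CPM. It was picked out after its values were seen, as an example of a ratio that few wells set.

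Immediate-early genes, which are switched on within minutes by signals and by handling, were higher in cells. Of 22 genes 14 reached the minimum, 12 were 2-fold or more higher in cells and none in nuclei, beside 6.91% and 0.558% of all genes, with a median of 1.73. Their summed share was 0.0607% ± 0.00156 in cells and 0.0174% ± 0.000253 in nuclei, 3.50-fold. FOS, an AP-1 subunit, stood at 74.9 ± 3.65 CPM in cells and 11.6 ± 1.05 CPM in nuclei (log2 2.69), EGR1, a zinc finger activator, at 167 ± 10.3 and 41.9 ± 0.199 CPM (1.99), JUN at 89.5 and 29.99 CPM (1.58) and JUNB at 11.7 and 2.02 CPM (2.53). Any called member under 20 CPM in cells, JUNB among them, stood under 10 CPM in nuclei. Such members passed the minimum of 10 CPM only through their level in cells. The genes of this list are short, with a median span of 4.35 kb. Of protein-coding genes under 5 kb in no list, 65.2% were called higher in cells.

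The wells of nuclei disagreed on these genes. EGR1 ran from 33.0 through 137 to 444 CPM in the wells of cells and from 0 through 3.28 to 178 CPM in those of nuclei, where only wells 11 and 12 exceeded 10 CPM. FOS ran from 13.7 through 60.9 to 310 CPM and from 0.386 through 3.16 to 46.2 CPM. Wells 11 and 12 held 2433 nuclei and 22.6% of the transcripts. These wells were set apart for their high EGR1 and FOS, so larger ratios of these genes without them follow from that choice. Without them all 14 genes were 2-fold or more higher in cells, with a median of 2.41, and the share in nuclei was 0.00834%. EGR1 then stood at 2.42 CPM in nuclei, a log2 ratio of 6.11, and FOS at 2.62 CPM, a log2 ratio of 4.84. Which organoids these wells held is not known here.

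Gene length separated the libraries across the whole table. The median log2 ratio fell with the annotated span of the gene, introns included: it was 1.91 for 54 genes under 2 kb, 1.30 for 254 of 2 to 5 kb, 0.66 for 5 to 10 kb, 0.22 for 20 to 50 kb, −0.03 for 100 to 200 kb and −0.35 for 415 genes of 500 kb or more. Across 11641 genes with a span, the Spearman correlation of ratio and span was −0.488. It was −0.241 for exonic length. The correlation with span was weaker at a minimum of 1 CPM and with equal weight per entry, and stronger at 50 CPM, as given below. Genes are not independent replicates, and they share the 2 libraries, their depth and their kits, so the correlation is a description. Genes called higher in cells had a median span of 9.91 kb and those called higher in nuclei 274 kb, against 51.5 kb for all.

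Introns and length went together. Of 88 protein-coding genes in 1 exon block, 68.2% were called higher in cells (median 1.32). Of 766 with more blocks but under 10 kb, 41.9% were called (median 0.83). Of 3042 with more blocks and 100 kb or more, 1.38% were called higher in cells and 1.18% in nuclei (median −0.12). The relation held within several lists of shared function. All 69 ribosomal protein genes under 20 kb were called (median 2.31) but 9 of 11 longer ones (1.73). For the respiratory chain the counts were 32 of 48 under 20 kb and 1 of 22 longer, for the cytoskeleton 13 of 17 and 3 of 8, and for the proteasome 5 of 19 and 0 of 12. Not every list split in its calls. Splicing regulators had 0 of 16 called under 20 kb and 0 of 24 longer, with medians of 0.25 and 0.09. Nuclear long noncoding RNAs had 0 of 2 and 0 of 9. The relation of ratio and length also held outside every list: 120 of 184 protein-coding genes under 5 kb were called higher in cells (65.2%), 234 of 1785 of 5 to 20 kb (13.1%) and 147 of 8012 longer ones (1.83%).

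Long noncoding RNAs followed this order up to 500 kb and broke it beyond. Their median fell from 0.48 at 2 to 5 kb (20 genes) through 0.04 at 20 to 50 kb to −0.21 at 100 to 200 kb and −0.20 at 200 to 500 kb. In the 93 of 500 kb or more it was 0.37, with 23.7% called higher in cells, beside 6.91% of all genes and 13.0% of those at 10 to 20 CPM. Their correlation of ratio with span was −0.109 (1090 genes). Of the 415 genes of any class at 500 kb or more, 31 were called higher in cells, 22 of them noncoding. These 31, singled out after their values were seen, had log2 ratios from 1.02 to 2.07 and levels of 10.1 to 47.4 CPM in cells. Their median level in cells was 13.4 CPM. Any of them under 20 CPM in cells stood under 10 CPM in nuclei, and so passed the minimum only through its level in cells. OFCC1 led, at 10.4 CPM in cells and 2.48 CPM in nuclei. Their summed share was 0.0495% in kept cells and 0.0193% in kept nuclei, and by well it ranged from 0.0298% to 0.248% in cells and from 0.0157% to 0.0237% in nuclei. Of the 31 genes 30 had a higher level in the background of the library of cells than in kept cells, and all 31 in that of nuclei than in kept nuclei (0.0731% and 0.0577% of the background). Without the 8 wells of cells above 0.1%, 21 of the 31 were still 2-fold or more higher in cells.

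**Figure D4:**
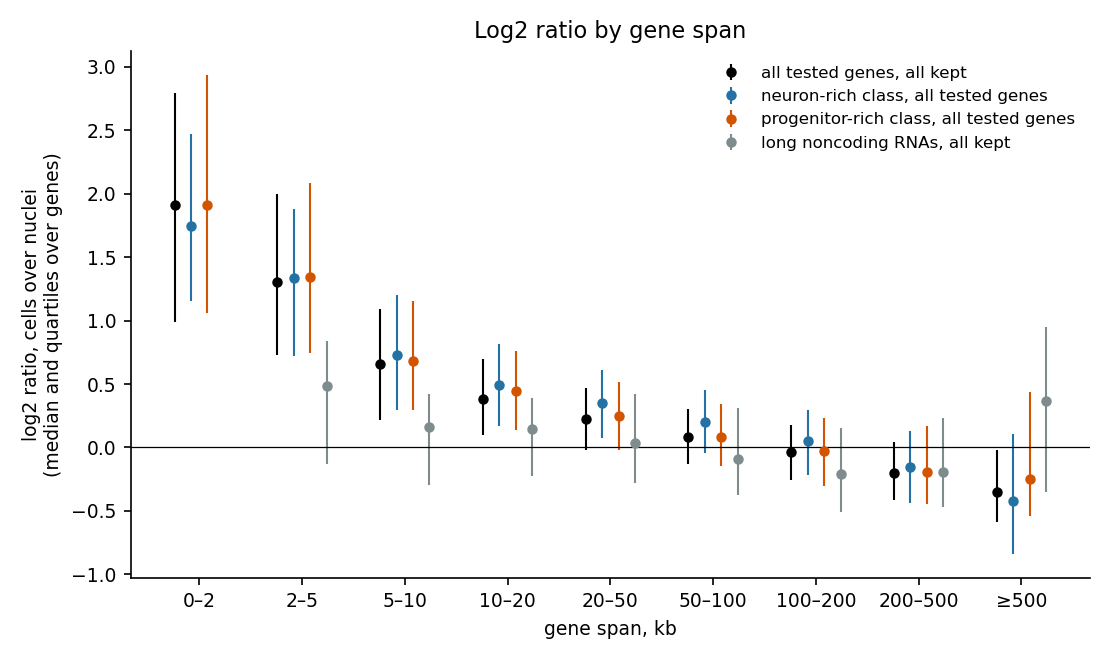
Median log2 ratio of CPM, cells over nuclei (points), with quartiles over genes (lines), by annotated gene span in kb, for all compared genes, for the neuron-rich and progenitor-rich classes, and for long noncoding RNAs. The medians fall from 1.91 under 2 kb to −0.35 at 500 kb or more for all genes, while long noncoding RNAs end at 0.37.

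To limit the effect of cell mix, the comparison was repeated in barcodes rich in neuronal or progenitor transcripts, with at least 5 transcripts of 2 panels of 10 marker genes and at least 80% of them from 1 panel. This gave 6106 neuron-rich cells and 4398 nuclei, and 2412 progenitor-rich cells and 2900 nuclei. The classes are ranges of a score, not cell types, and 2393 cells and 521 nuclei lay within 5 points of the limit for neurons, as did 1918 cells and 1942 nuclei for progenitors. Other neuronal markers summed to 2190 CPM in neuron-rich and 564 CPM in progenitor-rich cells, and to 2967 and 532 CPM in nuclei. Other progenitor markers summed to 1102 and 1833 CPM in cells and to 897 and 1821 CPM in nuclei, so the classes stood less far apart in cells on both lists. Markers of dividing cells summed to 278 CPM in neuron-rich cells and 94.3 CPM in neuron-rich nuclei.

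Within neuron-rich barcodes 1012 of 11211 genes outside the panels (9.03%) were called higher in cells and 251 (2.24%) in nuclei. Within progenitor-rich barcodes the counts were 1070 of 11647 (9.19%) and 75 (0.644%). Ribosomal protein genes kept their place, with 78 of 80 called in each class and medians of 2.13 and 2.15. All 13 mitochondrial mRNAs were called in each, with medians of 3.71 and 4.95. Their share was 0.196% in neuron-rich cells and 0.534% in progenitor-rich cells, but 0.0165% and 0.0211% in the matching nuclei. The classes also differed in depth, with medians of 2279 transcripts per neuron-rich cell and 5066.5 per progenitor-rich cell, against 4120.5 and 3923 per nucleus. The part of depth in these values was not tested. The correlation of ratio with span was −0.464 in neuron-rich and −0.444 in progenitor-rich barcodes.

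In neuron-rich barcodes 17 of 46 long neuronal genes were called higher in nuclei, beside 2.24% of all genes, with a median of −0.83 and a summed share of 3.69% in cells and 6.25% in nuclei. Of all 410 genes of 500 kb or more compared in that class, 18.5% were called higher in nuclei. Within neuron-rich barcodes, Cajal-Retzius markers summed to 118 CPM in cells and 313 CPM in nuclei, inhibitory neuron markers to 14.8 and 38.8 CPM and choroid plexus markers to 507 and 951 CPM, and their part in the result was not tested. In progenitor-rich barcodes 2 were called higher in nuclei and 3 in cells, beside 0.644% and 9.19% of all genes, with a median of −0.21 and shares of 2.26% and 3.13%. LRP1B turned from −2.53 in neuron-rich to 0.86 in progenitor-rich barcodes. Of secreted and matrix proteins, 4 of 17 compared were called higher in cells among neuron-rich barcodes, beside 9.03% of all genes, and 12 of 24 compared among progenitor-rich barcodes, beside 9.19% (medians 0.31 and 1.05). The members compared were not the same in both classes. In progenitor-rich barcodes other markers were also higher in cells than in nuclei: choroid plexus markers summed to 3352 and 2159 CPM, dividing markers to 1497 and 953 CPM, mesenchyme markers to 52.6 and 32.4 CPM and endothelium markers to 31.0 and 6.33 CPM. Their part in the result was not tested. Of the genes called higher in cells among all kept entries, 639 could be compared in both classes, 501 were called in both and 1 lay below 0 in either. Of 52 called higher in nuclei there, 5 were called in both and 13 lay above 0 in either.

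The contrast between the classes was itself smaller in cells. Among 10413 genes compared in both classes, 274 were 4-fold or more higher in neuron-rich than progenitor-rich nuclei, with a median log2 contrast of 2.86 in nuclei and 2.02 in cells. Chosen in cells instead, 149 genes had a median contrast of 2.61 in cells and 3.43 in nuclei. For progenitor genes the medians were −2.67 in nuclei and −1.98 in cells (369 genes chosen in nuclei), and −2.89 and −2.37 (246 genes chosen in cells). Genes picked for a large contrast in 1 library tend to be smaller in the other, so both choices are given. Of the genes chosen in nuclei the contrast was smaller in cells for 264 of 274 and 353 of 369, and of those chosen in cells for 131 of 149 and 163 of 246. Exceptions on the progenitor side, named after their values were seen, were COBLL1 (−1.81 in nuclei, −3.03 in cells) and TRPM3 (−0.69 and −2.46).

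Among genes at 50 CPM or more in the higher library of each class, those whose ratio differed most between classes were singled out. They were chosen for unequal contrasts, so their values are a description. CNTNAP5, a neurexin-family adhesion protein, stood at 298 CPM in neuron-rich and 11.6 CPM in progenitor-rich nuclei, but at 112 and 109 CPM in the matching cells. Its background held 128 CPM in the library of cells and 130 CPM in that of nuclei. LRP1B stood at 1641 and 266 CPM in nuclei and at 283 and 485 CPM in cells, UNC5C, a netrin receptor, at 129 and 29.7 CPM in nuclei and at 24.3 and 56.1 CPM in cells, and CDH18, a cadherin, at 141 and 21.2 CPM in nuclei and at 59.5 and 93.0 CPM in cells. In neuron-rich cells all 4 stood below their level in the background of that library, which was 436 CPM for LRP1B, 54.4 CPM for UNC5C and 86.6 CPM for CDH18.

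On the progenitor side, THSD4, a matrix-associated protein, stood at 38.6 CPM in neuron-rich and 516 CPM in progenitor-rich nuclei, and at 50.8 and 200 CPM in cells. The noncoding LINC01965 stood at 13.9 and 348 CPM in nuclei and at 50.5 and 178 CPM in cells. DPY19L1, a mannosyltransferase linked to neuron migration, was an exception: it stood at 167 and 77.1 CPM in cells and at 60.7 and 79.97 CPM in nuclei. Barcodes that shared a combination of wells made up 39.4% of neuron-rich and 38.8% of progenitor-rich cells, against 8.82% and 8.52% of the nuclei. The parts of these and of free RNA in the contrasts were not tested.

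**Figure D5:**
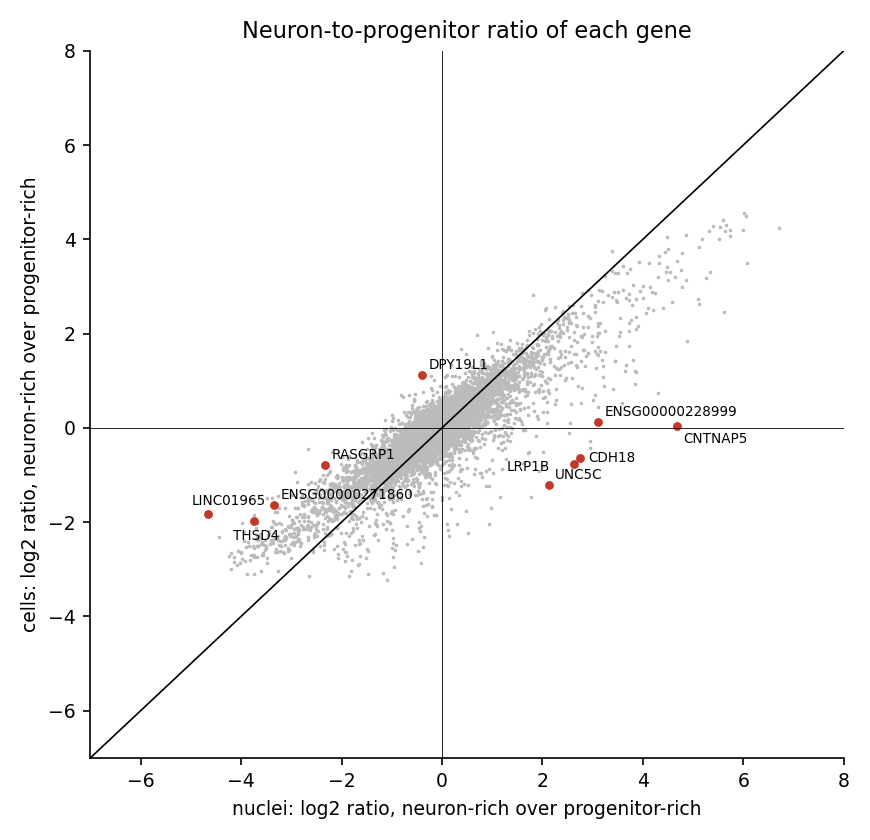
Log2 ratio of neuron-rich over progenitor-rich barcodes for each of 10413 genes, in nuclei (x axis) and cells (y axis), with a line at equal contrast. Labelled points are the 5 genes in each direction that differ most among those at 50 CPM or more in the higher library of each class. Of the genes 4-fold or more apart in nuclei, 264 of 274 neuronal and 353 of 369 progenitor genes had a smaller contrast in cells, and CNTNAP5 lies near 0 in cells.

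Markers of cell types were read for the mix of the libraries. Counts of called markers stand beside the 6.91% of all genes called higher in cells. Intermediate progenitor markers were higher in cells, 5 of 5 compared with a median of 1.59: EOMES stood at 24.1 and 7.95 CPM, NEUROG2 at 37.1 and 12.3 CPM and NHLH1 at 30.4 and 7.83 CPM. The genes of these 3 are under 10 kb. EOMES, NHLH1 and any of the 5 under 20 CPM in cells passed the minimum of 10 CPM only through their level in cells. Of the 6 markers in the list only 5 reached it in either library. In the progenitor panel 5 of 10 were called higher in cells, among them HES1 (90.6 and 22.7 CPM, log2 2.00) and SOX2 (163 and 73.1 CPM, 1.16). NES stood at 41.1 and 42.6 CPM (−0.05) and GLI3, a gene of 303 kb, at 838 and 1211 CPM (−0.53). The neuron panel gave 1 of 10, a share near that of all genes: NEUROD6, at 112 and 36.7 CPM (1.61). Besides the further neuronal markers (1366.5 CPM in cells, 1476.5 CPM in nuclei), the lists that summed to more in nuclei were those of inhibitory neurons (14.9 CPM in cells, 24.9 CPM in nuclei), Cajal-Retzius neurons (71.1 and 122 CPM) and choroid plexus (2103 and 2624 CPM). In the choroid plexus list TTR at a log2 ratio of 3.20 parted from HTR2C, a serotonin receptor with a gene of 326 kb, at 1424 and 2448 CPM (−0.78). Of the 5 markers each of endothelium and microglia none reached 10 CPM in either library. CALB2, a calcium buffer of Cajal-Retzius and other neurons, was called higher in nuclei, beside 0.558% of all genes, at 7.21 ± 1.60 and 19.4 ± 0.375 CPM. It passed the minimum of 10 CPM only through its level in nuclei.

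The study draws 17 genes as markers of stress or force, a list made for another comparison. Of 15 compared, 3 were called higher in cells and 1 in nuclei (NEAT1), beside 6.91% and 0.558% of all genes, with a median of 0.08. The 3 were VIM, an intermediate filament protein, at 195 and 61.8 CPM, SOD1, an antioxidant enzyme, at 28.4 and 12.6 CPM, and XBP1, a regulator of the unfolded protein response, at 11.3 and 5.14 CPM, which passed the minimum of 10 CPM only through its level in cells.

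The strictest reading asked for every well of one library above every well of the other. Of the 806 genes, 23 met it for cells (0.197% of those compared), and 1 met it for nuclei (0.00858%). The 23 held MT-ND4L, MT-ATP8, MT-ND2, MT-ND5, MT-RNR2, TMSB4X, ACTB, TUBB and RPL23A, and 14 genes of no list. Among the latter were PRDX2, a peroxidase, at log2 2.36 and CDKN1B, a cell cycle inhibitor, at 1.19. The mitochondrial pseudogene MTND4P12 (5.12) may share reads with MT-ND4. The gene for nuclei was the noncoding DANT2, with wells from 206 through 292 to 441 CPM in cells and from 461 through 744 to 866 CPM in nuclei, a log2 ratio of −1.10. Wells of cells held as few as 106060 transcripts, so at 10 CPM a gene rests on about 1 transcript in the smallest well, and low genes could hardly meet this demand there.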

How the data were processed

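Split-pool barcoded RNA of brain organoid cells and nuclei was analysed from the tables deposited by the authors, which hold transcript counts, whole numbers per gene and combination of well barcodes, not normalised. Per the study's methods, reads were demultiplexed with at most 1 mismatch into 8 sub-libraries of cells and 2 of nuclei and counted with spipe 1.0.3 on GRCh38 (annotation release 108). The study's methods also called doublets and removed contaminating RNA of cells at later steps; neither was done here. For cells, the study applied its final limits on genes and transcripts after that removal. Its limit on the ratio of genes to transcripts per cell was not applied to the main values here. The study's final set held far fewer than the 29212 cells kept here, so many of the kept cells are entries outside that set. Samples were grouped by the labels' titles, 1 library of cells and 1 of nuclei.

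Kept entries had more than 500 genes, more than 700 (cells) or 1000 (nuclei) transcripts and at most 20% mitochondrial transcripts. Counts were summed, scaled to 1000000 and compared as log2 ratios for genes with at least 10 CPM in the higher library. A gene was called at 2-fold or more. A gene without counts in 1 library would have been set to a floor of 3 counts. Depth was 164780142 and 72162726 transcripts, and intervals are 95% intervals of the ratio of Poisson counts, from the exact binomial interval. Gene spans and exons came from GENCODE 44 on GRCh38, matched by identifier for 62625 of 62704 genes. Start windows came from the RefSeq promoter table on GRCh38.p14, and a tract was a run of at least 8 C or T, on the gene's strand only, with at least 1 base among the 5 on either side of the start. Entries of 10 to 100 transcripts gave the background profile. Python 3.11.15, numpy 2.4.6, pandas 2.3.3, scipy 1.17.1 and matplotlib 3.10.9 were used. The calls were tested on simulated Poisson counts with planted 4-fold changes in genes of 20 CPM or more. These counts held no spread between wells or organoids, so they check the computation only.

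Named genes were, per list, up to 4 with the highest summed CPM and up to 2 with the largest ratio in each direction. Also named were the 10 largest ratios in each direction at 50 CPM or more that held in both classes without overlap of sub-libraries. The 5 genes in each direction that differed most between classes were taken at 50 CPM or more in the higher library of each class. The markers and genes the study names were added. Others are said to be chosen after their values were seen. The members, lists and alternatives were chosen with earlier results of these data known. The labels' "Embed" is not explained in the sources used here.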

Additional observations from a re-analysis of the deposited data

How the results depend on the processing

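With 1 library of each kind, no alternative bears on the spread between organoids, and the smallest wells limit low genes. No paired analysis was possible because the labels give 1 library of each kind, without shared replicate numbers. Main counts were 806 genes higher in cells and 65 higher in nuclei. Counts of genes higher in cells and in nuclei became 5250 and 104 at a minimum of 1 CPM, 170 and 43 at 50 CPM, 15554 and 1010 at 1 count in each library, and 159 and 0 at 4-fold. Genes higher in nuclei numbered 120 with ratios centred on their median, 104 with more than 5000 transcripts and 163 with a mitochondrial share of at most 5%, and in progenitor-rich barcodes 152, in place of 75, at a marker share of 90%. The log2 ratio of the mitochondrial mRNA share (4.11) was 3.81 at the 5% limit, 4.51 after subtracting 30% background, 3.57 in neuron-rich and 4.66 in progenitor-rich barcodes. That of the ribosomal protein share (1.98) was 1.84 with equal weight per entry, 1.90 at the 5% limit, 1.87 without the deepest entries, 2.12 after subtracting 30% background and 1.89 in neuron-rich barcodes. The correlation of ratio with span (−0.488) was −0.397 with equal weight, −0.281 and −0.566 at 1 and 50 CPM, −0.504 and −0.521 above 2000 and 5000 transcripts, −0.464 after subtracting 30% background, −0.464 and −0.444 in neuron-rich and progenitor-rich barcodes and −0.534 in protein-coding genes. Alternatives chosen after seeing the data gave 205 genes higher in nuclei, 3.97, 1.505 and −0.441 with each gene at its median over wells before summing, 23 and 1 genes without overlap of wells, −0.510 without the wells rich in long genes, and 4.66, 2.29 and −0.459 without wells 11 and 12 of nuclei. The list of stress or force markers turned from 0.08 to −0.052 when centred and −0.051 at 50 CPM, and secreted proteins to −0.26 at 50 CPM and −0.10 with genes at their medians over wells. Leaving out 1 sub-library at a time gave 779 to 852 and 64 to 71 genes, 16 to 17 lists above the median of all genes, 4.03 to 4.22, 1.95 to 2.01 and −0.491 to −0.483. Other list medians kept their direction under the alternatives run, although that of the respiratory chain (0.92) was 0.11 that of the proteasome (0.59) 0.22 and that of polyadenylated histone variants (1.39) 0.45 at 50 CPM, that of glycolysis (0.36) 0.084 with medians over wells to 0.80 in neuron-rich barcodes and that of nuclear small RNAs (1.00) 0.16 with equal weight to 3.19 after subtracting 30% background, and the cause of each move was not tested.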

Other observations

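The content of an entry differed with its depth. In cells of at most 2000 transcripts (17236) mitochondrial mRNAs made up 0.293% of transcripts, and in those above 20000 (1533) 0.410%, while ribosomal proteins stood at 0.592% and 0.627%, with 0.544% between 5000 and 20000. In nuclei of at most 2000 transcripts (2853) ribosomal proteins made up 0.198%, against 0.136% above 20000 (211), and MALAT1 4.73% against 3.89%. MALAT1 in cells went from 3.51% to 2.89% over the same classes. Long neuronal genes made up 3.13% in the shallowest nuclei and 4.53% in those of 5000 to 20000 transcripts, and 4.02% above 20000.

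The first-round wells of the nuclei have no label for treatment. EGR1 stood at 0, 6.51, 3.71, 5.54, 2.06, 8.10, 2.85, 0.946, 1.16 and 1.48 CPM in wells 1 to 10 and at 178 and 176 CPM in wells 11 and 12. FOS stood at 1.04, 1.63, 1.69, 5.04, 4.63, 11.1, 5.45, 0.946, 0.810 and 0.386 CPM in wells 1 to 10 and at 46.2 and 38.02 CPM in wells 11 and 12. Mitochondrial mRNAs made up 0.0480% and 0.0401% of transcripts in wells 11 and 12, beside 0.0365% in well 2 and 0.00890% in well 10. Ribosomal proteins made up 0.244% and 0.257% in wells 11 and 12, beside 0.163% in well 5 and 0.0970% in well 10. MALAT1 in wells 11 and 12, at 3.62% and 3.65%, lay within the range of the other 10 wells, 3.06% to 5.91%.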
